A study of Mus musculus with 6 samples.

Results

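The enzymes that write, copy and remove DNA methylation were examined in mouse embryonic stem (ES) cells with altered THAP1. They were taken by gene symbol as 9 of the 19713 genes in the table: the de novo methyltransferase genes Dnmt3a and Dnmt3b with their cofactor Dnmt3l, the maintenance genes Dnmt1 and Uhrf1, the dioxygenase genes Tet1, Tet2 and Tet3, and the glycosylase gene Tdg. RNA was sequenced from cells without THAP1 function after deletion of Thap1 exon 2 (KO), cells homozygous for the THAP1 missense change C54Y (C54Y), and wild-type cells (WT). THAP1 is a zinc finger transcription factor, and its mutations cause a form of inherited dystonia. The lines derive from C57Bl/6 blastocysts, and all were kept on irradiated fibroblast feeders in serum with leukemia inhibitory factor at 1000 units per ml. Each genotype had 2 libraries, numbered replicate 1 and replicate 2. The labels do not say what the number marks, or whether the libraries of a genotype came from separate clones or cultures.

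DNA methylation in mammals is carried mainly by cytosines in CpG pairs. DNMT3A and DNMT3B set it on unmethylated DNA with help from DNMT3L, which has no catalytic activity of its own, and UHRF1 brings DNMT1 to newly replicated DNA so that the pattern is copied. TET enzymes oxidise 5-methylcytosine, and TDG excises the more oxidised products so that base excision repair can restore an unmodified cytosine. In mouse ES cells the balance of these genes is known to differ between naive and primed states: Dnmt3a and Dnmt3b rise on leaving the naive state, and PRDM14 is known to repress Dnmt3b.

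The values are normalized counts, that is, the reads of a gene scaled by a size factor for its library, and 8 of the 9 genes passed the filter for testing (at least 10 normalized counts in at least 2 libraries). Tdg did not pass. Library depth ran from 31774656 to 46772996 reads, with 17061 to 18481 genes detected. The replicate number parted the libraries more than genotype did. In a principal component analysis of the tested genes, the first component held 73.8% of the variance and parted the replicate numbers. The second component held 17.6% and parted the genotypes. Rn45s, the ribosomal precursor transcript, took 1.49% to 2.05% of the replicate 2 reads and 0.472% to 0.600% of the replicate 1 reads. All 10 ES cell markers were present in every library, the lowest at 3961 normalized counts. The 20 fibroblast markers, which would show RNA of the feeders, summed to 0.0132% to 0.0659% of reads. Thap1 itself averaged 1831 ± 204 normalized counts in KO and 2393 ± 198 in C54Y, against 567 ± 190 in WT (SD, n = 2 each). These counts sum reads over the whole gene, so they check neither the deletion nor the base change.

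Because the libraries of a replicate number deviated together, genes are described as having risen or fallen where limma called them at an adjusted p under 0.05 with the replicate number as a block. The differences quoted are log2 fold changes ± SE from this fit, with p-values adjusted over 15287 genes. Without the block limma called 0 genes, that is 0% of those tested, in KO against WT, in C54Y against WT and in KO against C54Y. At an unadjusted p under 0.05 that fit had 1049, 252 and 207 genes in the same 3 comparisons, and edgeR without the block also called 0 in each. DESeq2 without the block called 235, 28 and 3 genes, with 0 of the 9 among them. For these 8 genes limma's adjusted p without the block was 0.844 or higher in each comparison between genotypes; the lowest were 0.725 by edgeR and 0.635 by DESeq2, both for Dnmt3b in KO against WT.

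In KO cells 4 of the 8 tested genes changed relative to WT. Dnmt3b fell by 1.32 and Dnmt3a fell by 0.93 on the log2 scale, while Tet2 rose by 1.26 and Uhrf1 by 0.59. Among all tested genes 8.9% rose and 7.41% fell in this comparison, against 2 and 2 of the 8 here. The same 4 were called by edgeR and by DESeq2 with the block. The upstream sequence of 1 annotated start is shown for each of these 4 genes. CpG content differs widely between starts, also within a gene, and CpG pairs are where methylation is set and removed. Each sequence is the 250 bases before an annotated start in RefSeq (GRCm38.p6), written 5′ to 3′ on the gene's strand with CpG in capitals. Dnmt3a lies at chr12:3891494-3891743 (plus strand, 15 CpG) before the last of its 3 annotated starts, which is inside the gene. Mouse Dnmt3a is known to use an internal promoter for a shorter form in ES cells. Dnmt3b lies at chr2:153649199-153649448 (plus strand, 21 CpG), Uhrf1 at chr17:56304063-56304312 (plus strand, 30 CpG, the second of its 2 starts) and Tet2 at chr3:133544391-133544640 (minus strand, 51 CpG).
Dnmt3a: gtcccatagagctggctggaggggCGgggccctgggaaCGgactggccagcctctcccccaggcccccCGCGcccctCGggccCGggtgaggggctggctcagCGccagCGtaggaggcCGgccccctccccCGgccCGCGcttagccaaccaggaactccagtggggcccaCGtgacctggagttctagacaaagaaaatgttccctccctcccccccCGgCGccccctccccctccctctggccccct
Dnmt3b: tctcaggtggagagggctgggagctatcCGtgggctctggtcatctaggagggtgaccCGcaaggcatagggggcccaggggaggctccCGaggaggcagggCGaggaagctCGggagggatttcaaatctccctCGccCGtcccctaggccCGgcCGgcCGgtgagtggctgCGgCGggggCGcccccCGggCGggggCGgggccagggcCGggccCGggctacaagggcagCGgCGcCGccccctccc
Uhrf1: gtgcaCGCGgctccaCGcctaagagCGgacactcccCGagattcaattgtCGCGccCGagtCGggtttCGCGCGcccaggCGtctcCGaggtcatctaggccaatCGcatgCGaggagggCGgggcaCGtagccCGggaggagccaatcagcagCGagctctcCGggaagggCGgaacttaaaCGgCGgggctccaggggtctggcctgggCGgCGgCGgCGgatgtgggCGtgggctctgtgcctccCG
Tet2: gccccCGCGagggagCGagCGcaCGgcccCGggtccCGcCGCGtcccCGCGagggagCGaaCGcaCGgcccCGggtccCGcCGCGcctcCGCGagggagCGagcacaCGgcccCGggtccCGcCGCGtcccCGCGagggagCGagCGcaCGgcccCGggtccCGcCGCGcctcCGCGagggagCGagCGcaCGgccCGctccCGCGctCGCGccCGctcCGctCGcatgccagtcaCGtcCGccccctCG

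Over the full windows of 300 bases, from 250 before to 50 after a start, the Tet2 window held 57 CpG with an observed-to-expected ratio of 1.17. That placed it at the 99.2nd percentile of 32851 windows of 27025 genes, whose median was 7 CpG and a ratio of 0.384. The second Uhrf1 window had 33 CpG at a ratio of 0.959, and Dnmt3b had 30 at 0.694. The internal Dnmt3a window had 18 at 0.468, while the first and second Dnmt3a windows held 46 and 47 at 0.964 and 1.06. The first Uhrf1 window held 12 at 0.472. The 3 Dnmt3l windows were CpG-poor, with 3 to 6 CpG and ratios of 0.114 to 0.272. The motif TNNNGGCA, a core recognised by the THAP1 zinc finger, was searched on both strands. It occurred in 5 of the 16 windows of the 9 genes and in 42.0% of all windows. The matches lay in Dnmt1 (3 in 1 of its 3 windows), Dnmt3l (1 in each window) and Tdg (1). None of the windows of the 4 genes that changed in KO cells held these letters, and neither did those of Tet1 and Tet3, which were not called. Binding of THAP1 was not tested.

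Dnmt3b, the main de novo methyltransferase of the early embryo, had 5063 (replicate 1) and 10158 (replicate 2) normalized counts in KO, against 12030 and 26674 in WT. Both KO libraries lay below both WT libraries, at 42.1% and 38.1% of the WT library of the same number. The log2 fold change was -1.32 ± 0.14 (limma with the block, adjusted p = 0.000937). Groups that did not overlap were found for 3 of the 8 genes, Dnmt3b, Uhrf1 and Dnmt1, and for 27.2% of all tested genes. Of Dnmt3b's transcript windows of 50 bases, 9.81% were shared with Dnmt3c, a duplicated copy in rodents, which is not a row of the table, so reads from these stretches cannot be assigned with certainty. In bulk RNA, fewer cells with high expression and less RNA per cell cannot be told apart.

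Dnmt3a, the other de novo enzyme, had 4074 and 7517 normalized counts in KO, against 6422 and 17374 in WT. KO was lower within both replicate numbers, at 63.4% and 43.3% of WT, but the groups overlapped, since KO replicate 2 exceeded WT replicate 1. The fold change was -0.93 ± 0.16 on the log2 scale (limma with the block, adjusted p = 0.0063). Dnmt3l had 9335 and 27804 normalized counts in KO, against 7117 and 31171 in WT. It was higher in KO in replicate 1 and lower in replicate 2, and the log2 difference was 0.11 ± 0.15 (limma with the block, adjusted p = 0.659). Without KO replicate 2 the log2 difference was 0.35, and without KO replicate 1 it was -0.13 (limma with the block).

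**Figure D1:**
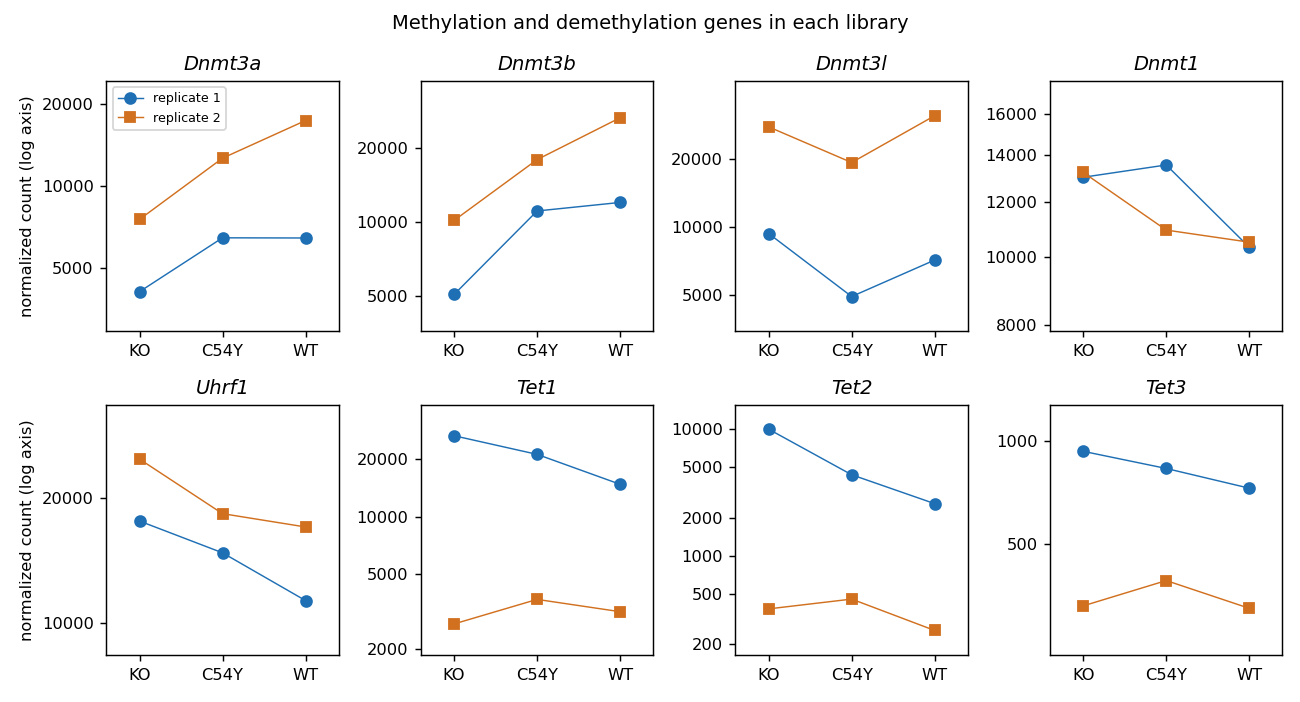
Normalized counts (log axis) of the 8 tested genes in KO, C54Y and WT libraries, with replicate 1 as blue circles and replicate 2 as orange squares; lines join libraries of one replicate number. Dnmt3b is lowest in KO within both replicate numbers, at 5063 and 10158, while Tet1, Tet2 and Tet3 are lower in every replicate 2 library than in any replicate 1 library.

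Uhrf1, the reader of hemimethylated DNA, had 17643 and 24879 normalized counts in KO, against 11350 and 17072 in WT. Both KO libraries lay above both WT libraries, by 1.55-fold and 1.46-fold within the replicate numbers. It rose by 0.59 ± 0.12 on the log2 scale (limma with the block, adjusted p = 0.0132), and this call was lost without WT replicate 1 (0.50, limma adjusted p = 0.0616). A processed pseudogene, Gm5648, shares 14.7% of its transcript windows, which leaves some of its reads uncertain. Dnmt1, the maintenance methyltransferase, had 13011 and 13217 normalized counts in KO, against 10335 and 10511 in WT. KO lay above WT by the same 1.26-fold in both replicate numbers, without overlap, but the log2 difference of 0.33 ± 0.13 was not called (limma with the block, adjusted p = 0.130). Without KO replicate 1 the log2 difference was 0.41, and without KO replicate 2 it was 0.25 (limma with the block).

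Tet2 had 10013 and 379 normalized counts in KO, against 2579 and 256 in WT. KO exceeded WT by 3.88-fold in replicate 1 and 1.48-fold in replicate 2, and the groups overlapped because the replicate numbers lay so far apart. The log2 fold change was 1.26 ± 0.32 (limma with the block, adjusted p = 0.028). Its size depended on the KO library, at 0.55 without KO replicate 1 and 1.97 without KO replicate 2. Tet1, the TET gene with the highest level per kb in every library, had 26676 and 2714 normalized counts in KO, against 14793 and 3147 in WT. It was higher in KO in replicate 1 and lower in replicate 2 (0.32 ± 0.22, limma with the block, adjusted p = 0.371). The log2 difference of Tet1 was 0.77 without KO replicate 2 and -0.14 without KO replicate 1. Tet3 had 935 and 328 normalized counts in KO, against 728 and 323 in WT. Its groups overlapped, and the log2 difference of 0.19 ± 0.20 was not called (limma with the block, adjusted p = 0.555).

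Tdg had 4 and 3 reads in KO, 1 and 1 in C54Y, and 1 and 3 in WT. These counts are too low for any test or fold. Of its transcript windows, 35.5% are shared with other genes, 29.4% with the processed pseudogene Tdg-ps, which is not a row of the table. The part of this shared sequence in the low count was not tested. A level of 0.444 normalized counts per kb was the median over the 6 libraries, so it can be read as no more than a few reads assigned to this row.

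**Figure D2:**
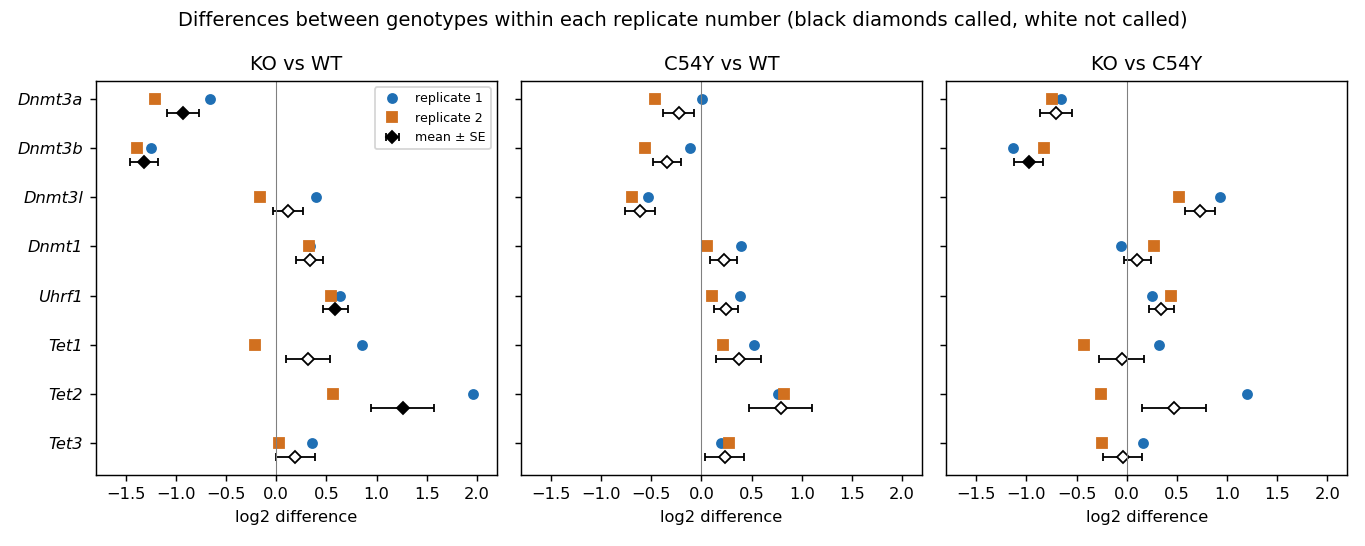
Log2 differences of the 8 tested genes in KO against WT, C54Y against WT and KO against C54Y; circles and squares are replicate 1 and 2, and diamonds are the mean ± SE of the fit with the replicate block, black where called. In KO against WT, Dnmt3a and Dnmt3b sit left of 0 and Uhrf1 and Tet2 right of 0 in both replicate numbers.

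In C54Y cells 0 of the 8 tested genes passed the threshold against WT, where 0.962% of all tested genes rose and 0.399% fell. Among the genes that set and copy methylation the largest difference was in Dnmt3l, which had 4901 and 19307 normalized counts in C54Y, against 7117 and 31171 in WT. C54Y was lower within both replicate numbers, at 68.9% and 61.9% of WT, with a log2 difference of -0.61 ± 0.15 (limma with the block, adjusted p = 0.104). Dnmt3b had 11103 and 17997 normalized counts in C54Y, against 12030 and 26674 in WT. Its log2 difference of -0.34 ± 0.14 was smaller than in KO, and the test of KO against C54Y is given with that comparison. Dnmt3a had 6432 and 12630 normalized counts in C54Y, against 6422 and 17374 in WT, and lay at 100.2% and 72.7% of WT within the replicate numbers.

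The other tested genes lay on the higher side in C54Y without being called. Tet2 had 4366 and 453 normalized counts in C54Y, against 2579 and 256 in WT, a like difference in both replicate numbers (1.69-fold and 1.77-fold) and a log2 difference of 0.79 ± 0.32 (limma with the block, adjusted p = 0.345). Tet1 had 21277 and 3654 normalized counts in C54Y, against 14793 and 3147 in WT. Uhrf1 had 14792 and 18381 normalized counts in C54Y, against 11350 and 17072 in WT, with overlapping groups. Dnmt1 had 13546 and 10937 normalized counts in C54Y, against 10335 and 10511 in WT. It was the single tested gene whose C54Y and WT libraries did not overlap, against 18% of all tested genes. Tet3 had 832 and 390 normalized counts in C54Y, against 728 and 323 in WT. The log2 differences of Tet1, Uhrf1, Dnmt1 and Tet3 were 0.37, 0.24, 0.22 and 0.23, with adjusted p between 0.470 and 0.743 (limma with the block). When the C54Y and WT libraries were fitted without KO, Dnmt3l, Tet1 and Tet2 passed the threshold, with adjusted p of 0.000225, 0.0269 and 9.07e-05 (limma with the block). In that fit 977 of 14952 genes rose and 636 fell, so many more genes passed than in the fit of all 6 libraries. Leaving out KO replicate 1 or KO replicate 2 cannot alter the log2 differences of C54Y against WT, because the model takes them from the C54Y and WT libraries alone. For Dnmt3l the log2 difference was -0.79 without WT replicate 1 and -0.44 without WT replicate 2 (limma with the block).

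Between KO and C54Y, 0.0458% of tested genes rose and 0.144% fell, and Dnmt3b was among those that fell. It had 5063 and 10158 normalized counts in KO, against 11103 and 17997 in C54Y, which do not overlap. KO stood at 45.6% and 56.4% of C54Y (-0.98 ± 0.14, limma with the block, adjusted p = 0.0455). The call was lost with a pseudocount of 0.5 or 10 (adjusted p = 0.0515 and 0.0552) and without C54Y replicate 1 (-0.79, adjusted p = 0.380). Libraries that did not overlap were found for 17.5% of all tested genes. Dnmt3a had a log2 difference of -0.70 ± 0.16 and Dnmt3l of 0.73 ± 0.15 (limma with the block, adjusted p = 0.103 and 0.0868). Each had the same sign in both replicate numbers. With 1 library left out at a time, Dnmt3a stayed between -0.86 and -0.54 and Dnmt3l between 0.49 and 0.97 (limma with the block). For Dnmt1, Uhrf1, Tet1, Tet2 and Tet3 the differences were 0.11, 0.35, -0.05, 0.47 and -0.04, with adjusted p of 0.229 or higher. Tet1, Tet2 and Tet3 were higher in KO in replicate 1 and lower in replicate 2. Accordingly the log2 difference of Tet1 was -0.51 without KO replicate 1 and 0.40 without KO replicate 2 (limma with the block). That of Tet2 was -0.24 and 1.18 in the same order.

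The 2 replicate numbers differed in 7 of the 8 tested genes, in the same direction in each genotype. In replicate 2, Dnmt3l rose by 1.89 ± 0.12, Dnmt3a by 1.10 ± 0.13, Dnmt3b by 0.95 ± 0.11 and Uhrf1 by 0.47 ± 0.10 on the log2 scale, while Tet2 fell by 3.77, Tet1 fell by 2.69 and Tet3 fell by 1.25 (limma, adjusted p of 0.00273 or lower). All tested genes gave 32% up and 32.8% down in this comparison. Dnmt1 was the exception, with a log2 difference of -0.09 ± 0.11 (limma, adjusted p = 0.506). Relative to replicate 1, Tet2 was 26.4-fold lower in replicate 2 of KO, 9.63-fold lower in C54Y and 10.1-fold lower in WT. Tet1 was 9.83-fold, 5.82-fold and 4.70-fold lower in the same order. The Rn45s share and the summed fibroblast markers were also higher in replicate 2, where 14 of the 19 tested fibroblast markers rose and 0 fell. Their part in the replicate difference of these genes was not tested.

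**Figure D3:**
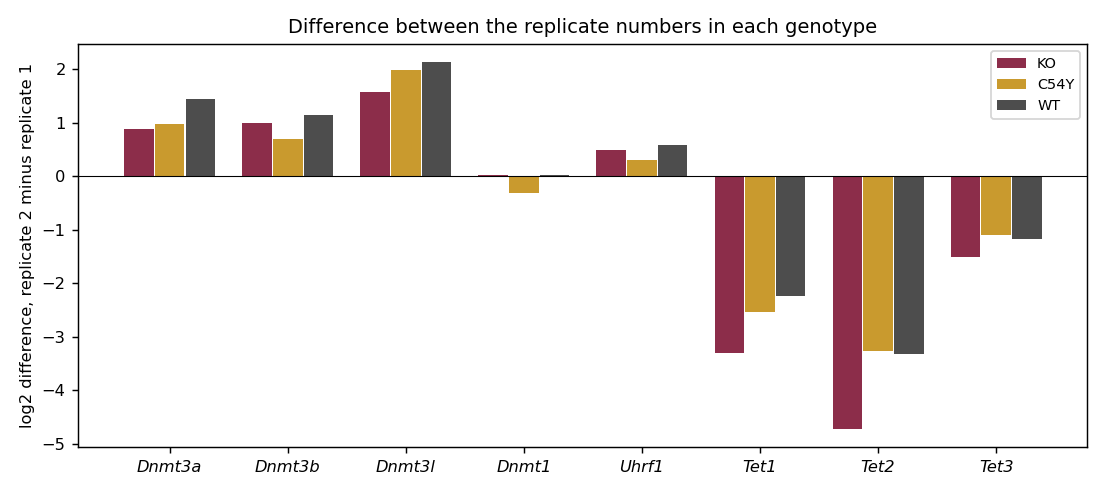
Log2 difference of replicate 2 minus replicate 1 for the 8 tested genes in KO, C54Y and WT, as bars from 0. Dnmt3a, Dnmt3b, Dnmt3l and Uhrf1 point up in every genotype, and Tet1, Tet2 and Tet3 point down, from -1.09 for Tet3 in C54Y to -4.72 for Tet2 in KO.

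Levels were compared between genes per kb of summed exon length in GENCODE M21 (GRCm38), which counts all annotated exons and so understates genes with long rarely used ones. In KO, Uhrf1 led in replicate 1 at 4143 normalized counts per kb, followed by Dnmt3l at 3124, Dnmt1 at 1764, Tet1 at 1726 and Dnmt3b at 992. In WT replicate 1, the order was Uhrf1 at 2665, Dnmt3l at 2382, Dnmt3b at 2356, Dnmt1 at 1401 and Tet1 at 957. Dnmt3b thus ranked 5 in KO replicate 1 and 3 in WT replicate 1. In replicate 2 of every genotype Dnmt3l ranked first, at 9305 in KO, 6462 in C54Y and 10432 in WT normalized counts per kb, and Tdg was last in all 6 libraries. Over both libraries the WT levels per kb were 6407 ± 5692 for Dnmt3l, 3790 ± 2028 for Dnmt3b, 3337 ± 950 for Uhrf1, 1413 ± 16.8 for Dnmt1, 715 ± 465 for Dnmt3a, 580 ± 533 for Tet1, 84.0 ± 97.4 for Tet2 and 31.5 ± 17.2 for Tet3 (SD, n = 2). Uhrf1 and Dnmt1, and Dnmt1 and Dnmt3a, were neighbours in that order further apart than the larger of their SDs. The other tested neighbours were not. These SDs include the difference between the replicate numbers. Within each library Tet1 lay above Tet2, with Tet2 at 0.0745 to 0.344 of Tet1.

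The ratio of Dnmt3b to Dnmt1 per kb, which sets de novo against maintenance enzyme, was 0.562 and 1.11 in KO, 1.18 and 2.38 in C54Y, and 1.68 and 3.67 in WT. Within both replicate numbers it was lowest in KO and highest in WT. The ratio of Dnmt3l to Dnmt3b was 3.15 and 4.68 in KO, 0.754 and 1.83 in C54Y, and 1.01 and 2.00 in WT. Here KO stood apart above all C54Y and WT libraries. The ratio of Uhrf1 to Dnmt1 was 2.35 and 3.26 in KO, 1.89 and 2.91 in C54Y, and 1.90 and 2.81 in WT, highest in KO within each replicate number. The ratio of Tet2 to Tet1 was 0.344 and 0.128 in KO, 0.188 and 0.114 in C54Y, and 0.160 and 0.0745 in WT. Dnmt3a and Dnmt3b together over the 3 TET genes gave 0.521 and 11.2 in KO, 1.52 and 14.9 in C54Y, and 2.38 and 26.3 in WT. This ratio was again lowest in KO and highest in WT within each replicate number, although the replicate numbers differed more than the genotypes. No test was made on these ratios.

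**Figure D4:**
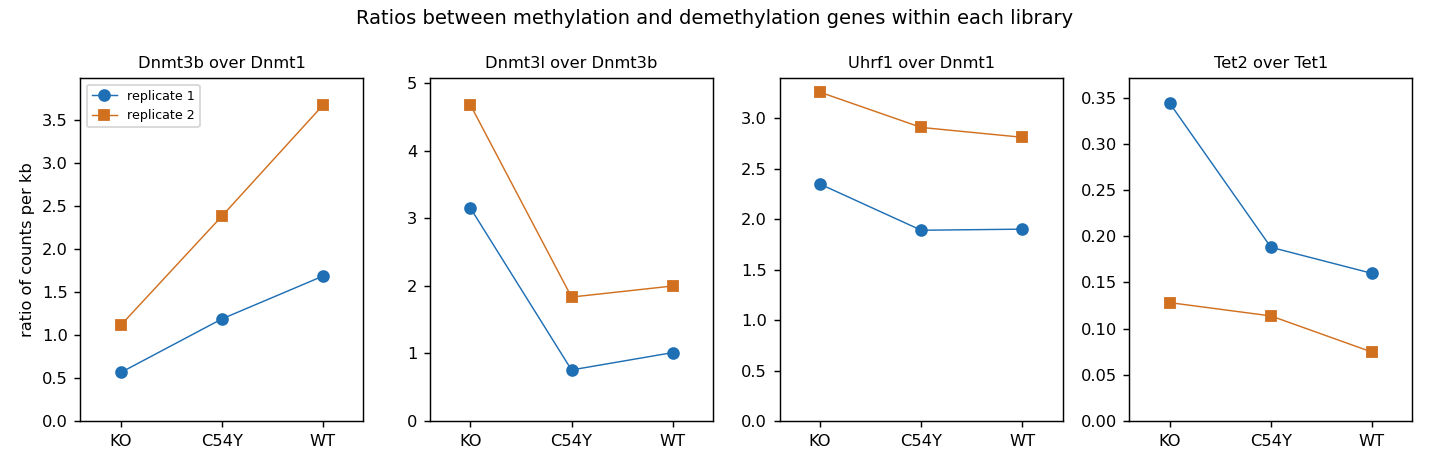
Ratios of normalized counts per kb in each KO, C54Y and WT library for Dnmt3b over Dnmt1, Dnmt3l over Dnmt3b, Uhrf1 over Dnmt1 and Tet2 over Tet1; circles are replicate 1 and squares replicate 2. The Dnmt3l over Dnmt3b ratio is 3.15 and 4.68 in KO and at most 2.00 in any C54Y or WT library.

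After centring within replicate number, Dnmt3a and Dnmt3b correlated at r = 0.974 over the 6 libraries, and Dnmt3b and Uhrf1 at -0.907. Tet1 correlated with Tet3 at 0.921 and Tet2 with Tet3 at 0.896. These are descriptions of 6 libraries that share 3 genotypes, with no test. By the same measure, among 11345 genes with a mean of at least 100 normalized counts, Faxc and Hlcs (both r = 0.999) were most like Dnmt3b. Clasp1 (r = 1.00) and Lrrc16a (0.999) were most like Dnmt3a, Entpd5 and Dnah17 (both 0.998) most like Uhrf1, and Ufd1l (1.00) and Appbp2 (0.999) most like Tet2. Of the candidates, 211 to 426 genes (1.86% to 3.75%) reached r above 0.95 for each of the 4. Faxc, for example, had 177 and 91.6 normalized counts in KO, against 424 and 237 in WT. It was called in KO against WT, as were Hlcs and Dnah17. The measure ignores the size of a change, and Clasp1, Lrrc16a, Entpd5, Ufd1l and Appbp2 were not called. Their log2 differences were -0.25, -0.44, 0.32, 0.39 and 0.33 (limma with the block, adjusted p of 0.133 or higher).

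Genes acting beside these enzymes were described by 8 lists, with the median log2 difference of all tested genes at 0.03 in KO against WT and 0.00 in C54Y against WT. All counts in KO stand against 8.9% of tested genes that rose and 7.41% that fell. Among 17 partners of maintenance methylation, 3 rose in KO, 0 fell and 14 did not pass, with a median of -0.01, so 17.6% were called, a share near that of all genes. Those that rose were Trim28 (0.49), a corepressor at retrotransposons and imprints, Lig1 (0.53), the replicative DNA ligase, and Zfp57 (0.68), which protects imprinted methylation. Dppa3, which is known to hold UHRF1 off chromatin in oocytes, had 1242 and 2812 normalized counts in KO, against 2038 and 3232 in WT, and was not called (-0.46, limma with the block, adjusted p = 0.104). Among 17 readers of CpG methylation, 2 rose and 0 fell (median 0.18), so 11.8% were called, also near the share of all genes. Zbtb38 (0.88), a zinc finger methyl-CpG binder, was among those that rose. Gatad2b (0.66) and Zbtb33 (0.89) were not called (limma with the block, adjusted p = 0.0568 and 0.0967).

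Of 22 base excision repair and proposed demethylation genes, 2 rose and 1 fell in KO (median -0.03), 13.6% called, again near the share of all genes (8.9% up and 7.41% down). Parp1, which senses strand breaks, had 33660 and 38172 normalized counts in KO, against 19007 and 24502 in WT (0.73). Ung, the uracil glycosylase, rose by 0.83 on the log2 scale. Gadd45g, a stress-induced gene proposed to aid demethylation, had 126 and 1213 normalized counts in KO, against 512 and 1522 in WT (-1.17), while Gadd45b (-0.78) was not called (limma with the block, adjusted p = 0.114). Of 19 tested methyl donor and one-carbon genes, 5 rose and 1 fell (median 0.21), 31.6% called. Tdh, the threonine dehydrogenase that feeds glycine to ES cells, rose by 0.86, Shmt2 and Shmt1, the serine hydroxymethyltransferases, by 0.83 and 0.52, and Ahcy and Srm by 0.41 and 0.47. Gnmt, which uses up S-adenosylmethionine, fell by 1.19. Of 18 genes for the 2-oxoglutarate supply of TET enzymes, 2 rose and 0 fell (median 0.18), 11.1% called, also near the share of all genes. These were Idh3g (1.07) and Idh2 (0.80), both of which encode isocitrate dehydrogenase subunits. D2hgdh (0.48) and Sdha (0.32) were not called (limma with the block, adjusted p = 0.0927 and 0.113). In C54Y against WT, 0 genes of these 5 lists were called, and likewise in KO against C54Y. So few genes were called in all (0.962% up and 0.399% down in C54Y against WT, 0.0458% and 0.144% in KO against C54Y) that a count of 0 says little about these lists.

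Of 21 tested germline genes whose promoters are methylated in somatic cells, 10 rose in KO, 1 fell and 10 did not pass, with a median of 0.98, against 8.9% up and 7.41% down among all genes. Tuba3a, a testis tubulin, had 1039 and 2283 normalized counts in KO, against 97.1 and 275 in WT (3.22). Fkbp6, needed in meiosis, had 205 and 375 normalized counts in KO, against 20.2 and 50.2 in WT (3.04). Both KO libraries exceeded both WT libraries for these genes, and the same held for Tex19.1 (1.98), which acts in germ cells and placenta; 27.2% of all tested genes did not overlap. Sycp1 (2.61), of the synaptonemal complex, overlapped, with 1150 and 36.9 normalized counts in KO, against 123 and 7.72 in WT. Tdrd1 was the gene that fell (-1.18). In C54Y 3 of the 21 rose and 0 fell, namely Tuba3a (1.97), Fkbp6 (2.16) and Smc1b (3.25), with a median of 0.40, against 0.962% up and 0.399% down among all genes.

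Of 24 tested imprinted genes, whose expression depends on parental methylation marks, 2 rose in KO, 9 fell and 13 did not pass, with a median of -0.29, against 8.9% up and 7.41% down among all genes. Grb10, a growth inhibitor, had 2060 and 1112 normalized counts in KO, against 7675 and 5985 in WT (-2.16). Nnat fell by 2.27 and Peg10 fell by 1.05, and Peg12 (1.93) and Ndn (0.90) rose. In C54Y 0 rose and 3 fell, namely Mest (-0.94), Peg10 (-0.83) and Cdkn1c (-1.05), against 0.962% up and 0.399% down among all genes. Between KO and C54Y, Grb10 was the single imprinted gene called (-1.77 ± 0.17, limma with the block, adjusted p = 0.0161). Total counts do not show from which parental allele the RNA came.

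Among 23 regulators that act around these enzymes in ES cells, 11 rose, 2 fell and 10 did not pass in KO (median 0.43), against 8.9% up and 7.41% down among all genes. Prdm14, known to repress Dnmt3b, had 1571 and 1624 normalized counts in KO, 689 and 1138 in C54Y, against 307 and 323 in WT (2.34 in KO). Zfp42, a naive-state gene, had 16657 and 6769 in KO, 8809 and 5996 in C54Y, against 1843 and 974 in WT (2.98 in KO), and Esrrb, a naive transcription factor, rose by 1.13. Pou3f1, of the primed state, fell by 1.61 and Lin28b fell by 0.98. Otx2 (-0.09) and Zic2 (-0.11), also linked to that state, were not called in KO (limma with the block, adjusted p = 0.764 and 0.693). In C54Y 4 rose and 0 fell: Zfp42 (2.44), Prdm14 (1.49), Klf2 (1.11) and Otx2 (0.93), against 0.962% up and 0.399% down among all genes. The part of Prdm14 in the level of Dnmt3b was not tested. Of the ES cell markers 4 of 10 rose in KO and 0 fell. Of the 19 tested fibroblast markers, 0 rose and 2 fell, Pdgfra (-1.83) and Mmp2 (-1.03), with a median of -0.48, 3 of 19 above 0, and summed levels of 4655 and 25663 normalized counts in KO, against 8646 and 23649 in WT. The part of feeder RNA in the listed changes was not tested.

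**Figure D5:**
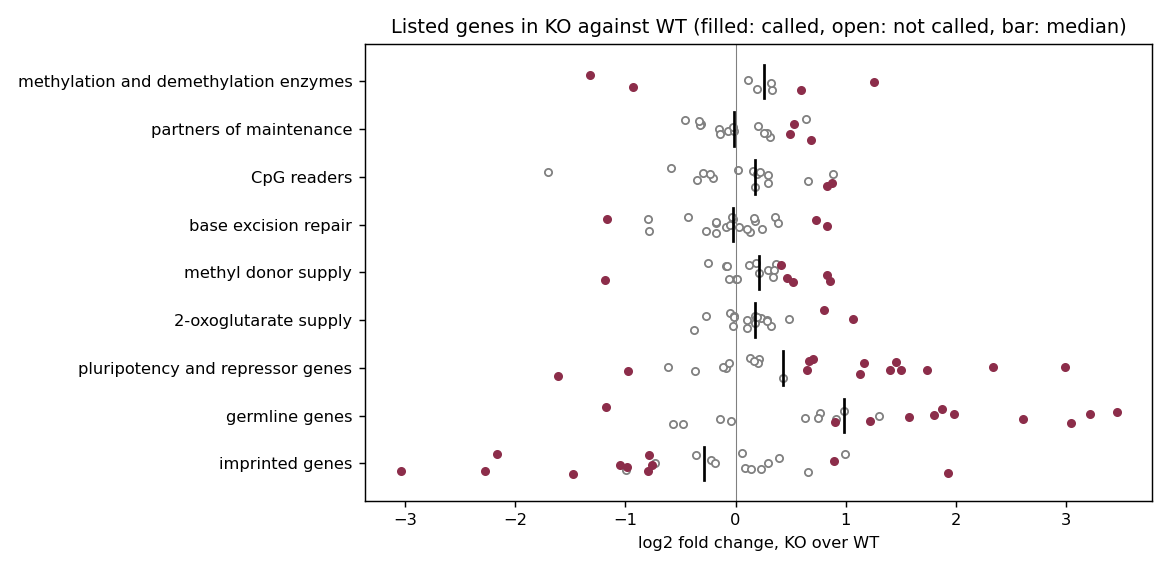
Log2 fold change of KO against WT for each gene of the 8 lists and the 8 tested enzymes, filled where called with the replicate block, with a bar at each list's median. The germline list has its median at 0.98 and the imprinted list at -0.29.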

How the data were processed

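RNA sequencing covered 6 libraries of 3 genotypes. Per the submitters' processing notes the tools were CASAVA, Trimmomatic, TopHat2 2.1.0, HTSeq and DESeq2 with mouse build mm9; strand setting and annotation are not given in the sources used here. The deposited table holds signal values, normalized counts that the authors made by dividing reads by a size factor for each library. All values (100%) fell on multiples of a step particular to their library within 1e-06, which gave back whole reads.

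Differences were tested two-sided with limma 3.58.1 (robust trend, R 4.3.3) after adding a pseudocount of 2 and taking log2, which understates the change of low genes, over all 6 libraries, with Benjamini-Hochberg adjustment at 0.05. Genes with at least 10 normalized counts in at least 2 libraries were kept (15287 of 19713). The planned model held genotype alone, and the replicate block was the planned second fit. Deviations from genotype means correlated at 0.869 for KO and WT, 0.907 for C54Y and WT and 0.895 for KO and C54Y, so the numbers pair the libraries. The p-values measure only the spread between these samples, which may be technical. With 2 libraries a group no permutation test could reach 0.05. The count tests, edgeR 4.0.16 and DESeq2 1.42.0 on the recovered reads with the block, called 2427 and 2522 genes in KO against WT. The fits were tested on simulated data.

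Named were the 9 genes, Thap1, Rn45s, the 4 members of each list with the smallest p in KO against WT, and the 2 genes most like each changed gene; 1 listed gene is not reported here. Ahcy, Srm, Tdrd1, Smc1b, Mest, Cdkn1c, Ndn, Lin28b, Klf2, Otx2 and Zic2 were named after their values were seen. The genes and lists were chosen with earlier results of these data known. Symbols were matched to GENCODE M21 and RefSeq tables of GRCm38, another build than the authors' mm9, for lengths, positions and upstream sequences only.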

Additional observations from a re-analysis of the deposited data

How the results depend on the processing

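Without the replicate block limma called 0 genes in each comparison of genotypes, and the block decides every call given for them. In KO against WT, 4 of the 8 genes were called with the block by limma, edgeR and DESeq2, with TMM scaling, pseudocounts of 0.5 or 10, no filter, or the 2 groups alone. All genes called numbered 2494 with the block, 2427 by edgeR with the block, 2522 by DESeq2 with the block (235 without), 2442 with TMM scaling (1095 up and 1347 down, against 1361 and 1133 with the deposited scaling), 2403 and 2494 with pseudocounts of 0.5 and 10, 2452 without a filter and 2329 with the 2 groups alone. In C54Y against WT, 1 of the genes was called by DESeq2 with the block and 3 with the 2 groups alone. All genes called numbered 208 with the block, 198 by edgeR and 479 by DESeq2 with it (28 without), 196 with TMM scaling, 193 and 183 with the pseudocounts, 210 without a filter and 1613 with the 2 groups alone. In KO against C54Y, 1 gene was called with the block by limma, edgeR, TMM scaling and no filter, 0 with either pseudocount, and 3 by DESeq2 with the block or with the 2 groups alone. All genes called numbered 29 with the block, 29 by edgeR and 452 by DESeq2 with it (3 without), 29 with TMM scaling, 22 and 21 with the pseudocounts, 32 without a filter and 700 with the 2 groups alone.

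Leaving out 1 library at a time, with and without the block, 0 to 6 of the genes were called in KO against WT, 0 to 4 in C54Y against WT and 0 to 5 in KO against C54Y, and 0 to 4861, 0 to 1818 and 0 to 2831 of all genes. Each such fit leaves a genotype with 1 library, which has no spread of its own. Without the block such fits also leave the replicate numbers unbalanced. Over both kinds of fit, the log2 differences in KO against WT ran from -0.95 to 1.18 for Dnmt3l, -1.33 to 1.97 for Tet1, -1.10 to 3.62 for Tet2 and -0.56 to 0.94 for Tet3. In C54Y against WT they ran from -0.95 to 0.49 for Dnmt3a, -0.92 to 0.23 for Dnmt3b, -1.68 to 0.45 for Dnmt3l, -0.050 to 0.54 for Uhrf1, -0.90 to 1.64 for Tet1, -0.87 to 2.45 for Tet2 and -0.35 to 0.81 for Tet3. In KO against C54Y they ran from -0.059 to 0.27 for Dnmt1, -0.26 to 1.72 for Dnmt3l, -1.70 to 1.60 for Tet1, -1.89 to 2.83 for Tet2 and -0.79 to 0.71 for Tet3. With the block, leaving out 1 library kept Dnmt3b between -1.47 and -1.17 and Dnmt3a between -1.19 and -0.68 in KO against WT. Without it they ran from -1.89 to -0.75 and from -1.65 to -0.21, and Uhrf1 from 0.30 to 0.88, none called.

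Without the block, Dnmt3l in KO against WT was -0.11 by edgeR and -0.046 by DESeq2. Tet1 in KO against C54Y was 0.15 by edgeR and 0.24 by DESeq2, and Tet3 was 0.048 by DESeq2. Each is opposite in sign to the limma value, which was 0.11 for Dnmt3l, -0.05 for Tet1 and -0.04 for Tet3. The cause of the reversals was not tested. The replicate difference was called for 7 of the 8 genes under each of its 5 alternatives. Tdg had 1 to 4 reads per library, too few for a comparison.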
